A study of Homo sapiens with 6 samples.

Results

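The 9 genes described here form the core of the major histocompatibility complex (MHC) class I antigen presentation pathway: the heavy chain genes HLA-B, HLA-C and HLA-E, the light chain gene B2M, the peptide transporter genes TAP1 and TAP2, the tapasin gene TAPBP, and the immunoproteasome genes PSMB8 and PSMB9. They were chosen by gene symbol and make up 9 of the 25268 symbols in the table of FPKM values (fragments mapped to a gene, scaled by transcript length and library size). All 9 were among the 12169 genes kept for testing, which reached 1 FPKM in 2 or more of the 6 libraries. The libraries came from A673, an established Ewing sarcoma cell line, sampled 72 h after transfection with endoribonuclease-prepared small interfering RNA (esiRNA). The esiFLI1 cells received esiRNA against FLI1, labelled as directed at the EWS-FLI1 fusion, the esiUSP9X cells received esiRNA against the deubiquitinase gene USP9X, and the esiGFP control cells received esiRNA against GFP, which is labelled as a control without a target. Each group had 2 libraries, all from the same line, and no label says whether these came from separate cultures, so the p-values speak only of the spread among these samples, which may be technical.

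MHC class I molecules carry peptides from inside the cell to its surface, where CD8 T cells read them. The proteasome cuts proteins into peptides, and PSMB8 and PSMB9 encode catalytic subunits that replace the standard subunits PSMB5 and PSMB6 in the immunoproteasome; the transporter of TAP1 and TAP2 then pumps the peptides into the endoplasmic reticulum, where tapasin holds an empty heavy chain with beta-2-microglobulin, the product of B2M, beside the transporter. Interferon gamma is known to raise the transcription of these genes through IRF1 and the activator NLRC5, and Ewing sarcoma is known for low surface levels of class I molecules.

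The targets were lower in their own groups. FLI1 had 12.7 and 14.1 FPKM in esiFLI1 cells, 25 and 31.9 FPKM in esiUSP9X cells, and 24.1 and 36.4 FPKM in esiGFP cells, values that can hold reads of the fusion transcript as well as of FLI1 itself. USP9X had 5.31 and 7.10 FPKM in esiUSP9X cells, 26.2 and 37.7 FPKM in esiFLI1 cells, and 20.6 and 26.5 FPKM in esiGFP cells. The FPKM sum of a library was between 781732 and 907926, and the symbol MIR6723 held between 33.2% and 50.9% of it. All 9 class I genes were higher in replicate 1 than in replicate 2 of every group, against 56.0% of kept genes in esiFLI1, 57.4% in esiUSP9X and 53.9% in esiGFP. Changes were tested in limma without a block, which was the main fit. An alternative fit had the replicate number as a block and is called the blocked fit. No label says that the replicate number marks a shared batch. A gene was called at a Benjamini-Hochberg adjusted p under 0.05 over all kept genes, two-sided, and every log2 change is on the log2(FPKM + 1) scale, which understates the change of genes at low levels.

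Class I promoters are known for an enhancer bound by NF-kappaB, an element bound by interferon regulatory factors, and an X2 and a Y box bound by CREB family factors and NF-Y. The RefSeq promoter table (GRCh38.p14, not the build of the deposited values) had entries for 8 of the 9 genes, 7 of them on chromosome 6 and B2M on chromosome 15; TAP1 and PSMB8 had 2 entries each. The 250 bases before the start are shown for 6 genes, which differ in the matches they hold. Capitals mark matches on either strand to GAAANNGAA (interferon regulatory factors), GGGGANTCC (NF-kappaB), TGACG (the core of the X2 box) or ATTGG (the core of the Y box). The stretch shown for HLA-B is chr6:31357180-31357429 and that for HLA-C chr6:31272093-31272342, both on the minus strand. That for B2M is chr15:44711267-44711516 on the plus strand. That for TAP1 is chr6:32853705-32853954 on the minus strand, that for PSMB9 chr6:32853942-32854191 on the plus strand, and that for TAPBP chr6:33314079-33314328 on the minus strand.
HLA-B: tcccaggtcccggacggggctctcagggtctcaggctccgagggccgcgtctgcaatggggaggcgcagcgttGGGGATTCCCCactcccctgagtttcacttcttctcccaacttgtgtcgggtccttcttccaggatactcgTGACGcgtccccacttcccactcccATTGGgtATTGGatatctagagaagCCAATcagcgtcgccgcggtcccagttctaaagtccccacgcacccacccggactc
HLA-C: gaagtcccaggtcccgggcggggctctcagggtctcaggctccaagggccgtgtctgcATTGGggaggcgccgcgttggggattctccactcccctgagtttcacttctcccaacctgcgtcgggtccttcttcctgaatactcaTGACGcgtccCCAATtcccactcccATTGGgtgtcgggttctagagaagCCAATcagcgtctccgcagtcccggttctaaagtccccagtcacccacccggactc
B2M: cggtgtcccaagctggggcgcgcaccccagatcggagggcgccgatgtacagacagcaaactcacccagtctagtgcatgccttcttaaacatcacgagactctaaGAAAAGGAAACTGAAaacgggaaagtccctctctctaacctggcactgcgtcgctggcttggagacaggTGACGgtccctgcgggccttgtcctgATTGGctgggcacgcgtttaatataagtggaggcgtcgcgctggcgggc
TAP1: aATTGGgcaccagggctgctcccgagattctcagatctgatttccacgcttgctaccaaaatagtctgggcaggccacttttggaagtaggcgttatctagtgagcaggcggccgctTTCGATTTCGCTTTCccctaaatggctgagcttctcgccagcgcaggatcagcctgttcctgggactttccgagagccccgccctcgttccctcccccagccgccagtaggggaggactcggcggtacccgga
PSMB9: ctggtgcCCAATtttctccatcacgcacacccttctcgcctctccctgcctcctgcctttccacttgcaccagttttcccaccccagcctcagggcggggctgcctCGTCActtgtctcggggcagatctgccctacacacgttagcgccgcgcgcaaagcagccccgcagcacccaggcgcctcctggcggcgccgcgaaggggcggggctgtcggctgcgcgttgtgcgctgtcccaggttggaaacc
TAPBP: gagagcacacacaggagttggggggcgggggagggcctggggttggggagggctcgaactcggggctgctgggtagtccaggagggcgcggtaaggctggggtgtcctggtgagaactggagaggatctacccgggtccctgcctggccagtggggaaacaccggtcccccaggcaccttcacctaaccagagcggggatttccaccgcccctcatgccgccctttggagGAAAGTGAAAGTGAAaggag

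The HLA-B and HLA-C promoter windows, each 300 bases long with 50 bases after the start, were identical at 269 of 304 aligned positions (88.5%), and each held TGACG with matches to ATTGG between it and the start. TAP1 and PSMB9 start 488 bases apart on opposite strands. GAAANNGAA was found in 5 of the 10 windows (B2M, TAP1, TAP2, TAPBP and PSMB8) and in 8.11% of all 35116 windows of that length; in B2M, TAP1 and TAPBP a pair of matches overlapped. GGGGANTCC was found in the HLA-B window, on both strands with overlap, and in 1.53% of all windows. TGACG was found in 6 of the 10 windows and in 24.6% of all, and ATTGG in 5 of the 10 and in 34.6% of all. A STAT motif, TTCNNNGAA, was found in 2 of the 10 (TAP1 and PSMB8) and in 7.66% of all, and GGAAGGA, a pair of ETS cores, in 1 of the 10 (PSMB8) and in 11.6% of all. A match is a description of the letters in the window and does not show binding. A window without a match can still hold a variant of the element, since only these exact patterns were searched.

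In control cells the pathway was dominated by B2M. Its mean of 1799 ± 128 FPKM in esiGFP (SD, n = 2) placed it at rank 25 among all 25268 symbols. HLA-C followed with 53.7 ± 35.0 FPKM, then TAPBP with 18.2 ± 7.53, HLA-E with 16.2 ± 4.84, PSMB8 with 12.3 ± 6.57, TAP2 with 6.55 ± 2.01, HLA-B with 4.0 ± 3.14, TAP1 with 3.37 ± 1.94 and PSMB9 with 1.59 ± 0.488 FPKM. Between neighbours in this order, the esiGFP values of B2M and HLA-C, of HLA-C and TAPBP, and of TAP1 and PSMB9 did not overlap, while those of every other neighbouring pair did. The FPKM of HLA genes is uncertain in all libraries, since near-identical HLA genes share reads and the alleles of A673 can differ from the reference sequence.

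**Figure D1:**
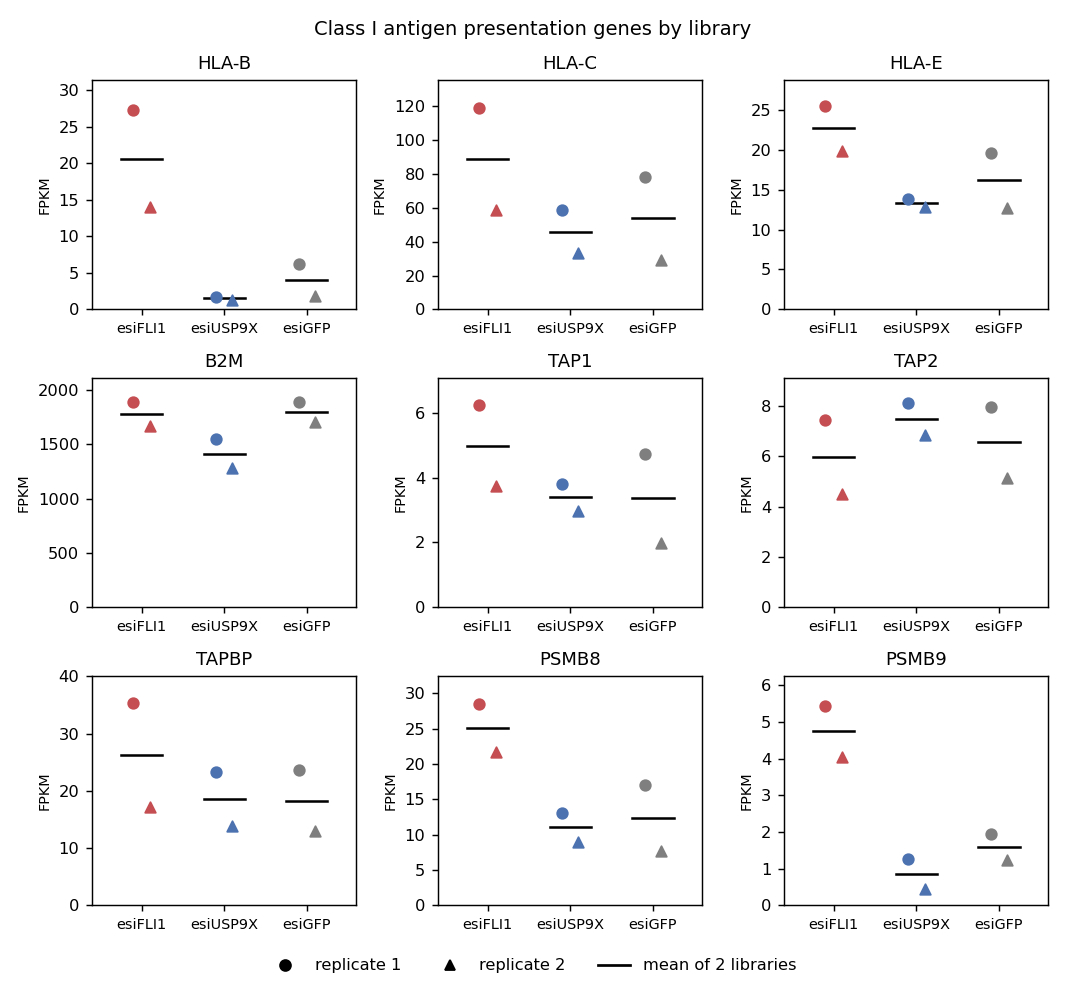
FPKM of the 9 class I presentation genes in each library, with a panel and an axis of its own for each gene. Circles are replicate 1, triangles replicate 2 and bars the mean of the 2 libraries in esiFLI1, esiUSP9X and esiGFP cells; replicate 1 was the higher in every group, and both esiFLI1 libraries lay above both esiGFP libraries for HLA-B, HLA-E, PSMB8 and PSMB9.

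In esiFLI1 cells 7 of the 9 genes were higher than in esiGFP cells in the blocked fit and 0 were lower, with HLA-B, PSMB9 and PSMB8 changing most, while B2M and TAP2 were not called. The blocked fit called 42.1% of all kept genes in this comparison, and 20.6% of all kept genes were called higher. The fit without a block called 2.81% of kept genes and 0 of the 9 genes. At an unadjusted p under 0.05 it had 2 of the 9 (HLA-B and PSMB9), against 1923 of the 12169 kept genes. The blocked count of 7 was 4 without esiFLI1 replicate 1, 4 without esiFLI1 replicate 2 and 5 without esiGFP replicate 2. The median log2 change of the 9 genes was 0.50, against -0.03 over all kept genes. Without a block this median was 0.09 without esiGFP replicate 2, 0.30 without esiFLI1 replicate 1, 0.97 without esiGFP replicate 1 and 0.98 without esiFLI1 replicate 2, and with the block it was 0.49 to 0.74 when a library was left out. The esiFLI1 and esiGFP values did not overlap for HLA-B, HLA-E, PSMB8 and PSMB9, each higher in esiFLI1; 19.8% of all kept genes had both esiFLI1 libraries above both esiGFP libraries, and 17.3% had both below.

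Among the heavy chains, which bind the peptide, HLA-B changed most. HLA-B had 27.3 and 14.0 FPKM in esiFLI1 cells and 6.22 and 1.77 FPKM in esiGFP cells. Both esiFLI1 libraries lay above both controls, although the controls themselves were far apart. The log2 change was 2.20, a 4.6-fold difference on the FPKM + 1 scale, with 1.97 in replicate 1 and 2.44 in replicate 2. It passed the threshold with the block (SE 0.23, limma adjusted p = 3.39e-04) and not without it (SE 0.54, adjusted p = 0.131). Its limma adjusted p was at most 0.0234 over the 13 settings with the block and reached 0.416 over those without it. The size of the change ran from 1.51 without esiGFP replicate 2 to 2.89 without esiGFP replicate 1, both with no block.

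HLA-C, the most abundant of these 3 heavy chains, had 119 and 58.9 FPKM in esiFLI1 cells and 78.5 and 29.0 FPKM in esiGFP cells. These values overlapped between the groups, yet within each replicate number the esiFLI1 library was the higher. The log2 change was 0.80 (blocked SE 0.14, limma adjusted p = 0.00383; 0.654 without a block), and the call ended in the blocked fit without esiFLI1 replicate 2 (0.0702). With no block the HLA-C change was 0.09 without esiGFP replicate 2, 0.30 without esiFLI1 replicate 1, 1.30 without esiFLI1 replicate 2 and 1.5 without esiGFP replicate 1. HLA-E, a class I molecule that presents leader peptides to natural killer cells, had 25.5 and 19.9 FPKM in esiFLI1 cells and 19.6 and 12.7 FPKM in esiGFP cells. The groups were separated by a small gap, since the lower esiFLI1 value was just above the higher esiGFP value. Its log2 change of 0.48 was called with the block (SE 0.13, limma adjusted p = 0.0185; 0.499 with no block), but no longer without esiFLI1 replicate 1 (0.106), without esiFLI1 replicate 2 (0.122), without esiGFP replicate 2 (0.212) or with no filter on low values (0.0768). With no block it was 0.19 without esiGFP replicate 2 and 0.78 without esiGFP replicate 1.

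B2M, the light chain that every class I heavy chain needs at the surface, had 1891 and 1670 FPKM in esiFLI1 cells and 1890 and 1708 FPKM in esiGFP cells. The libraries of a given number were nearly equal across the groups. Its log2 change was -0.02 with a blocked 95% interval of -0.26 to 0.22 (limma adjusted p = 0.915; 0.985 without a block). The sign of the B2M change was positive after quantile normalization (0.18) and after rescaling without MIR6723 (0.14), where it was not called either.

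Of the transporter genes TAP1 was called in the blocked fit and TAP2 was not. TAP1 had 6.23 and 3.73 FPKM in esiFLI1 cells and 4.74 and 2.00 FPKM in esiGFP cells. TAP2, the partner subunit, had 7.45 and 4.51 FPKM in esiFLI1 cells and 7.97 and 5.13 FPKM in esiGFP cells. TAP1 was thus higher, and TAP2 lower, in the esiFLI1 library of each number, while the ranges of the groups overlapped for both genes. With the block TAP1 rose by 0.50 (SE 0.16, limma adjusted p = 0.0391; 0.665 with no block). That call was lost without esiFLI1 replicate 1 (0.18), esiFLI1 replicate 2 (0.194) or esiGFP replicate 2 (0.362), with no filter on low values (0.153) and after quantile normalization (0.0902). With no block the TAP1 change was 0.03 without esiGFP replicate 2 and 0.97 without esiGFP replicate 1. The log2 change of TAP2 was -0.12 with a blocked interval of -0.41 to 0.17 (adjusted p = 0.467), and it was 0.01 after rescaling without MIR6723. TAPBP, whose product tapasin edits the peptides loaded, had 35.4 and 17.1 FPKM in esiFLI1 cells and 23.6 and 12.9 FPKM in esiGFP cells. The groups overlapped, and the difference was larger in replicate 1. Its log2 change of 0.47 was called with the block (SE 0.11, limma adjusted p = 0.0105; 0.756 with no block), but no longer without esiFLI1 replicate 1 (0.0732), where the fit with no block gave a log2 change of -0.03. That fit gave 0.06 without esiGFP replicate 2 and 0.98 without esiFLI1 replicate 2. Over all settings the limma adjusted p reached 0.959 for HLA-C, 0.814 for HLA-E, 0.982 for TAP1 and 0.982 for TAPBP.

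Both immunoproteasome genes rose in esiFLI1 cells in the blocked fit. PSMB8 had 28.5 and 21.7 FPKM in esiFLI1 cells and 17.0 and 7.70 FPKM in esiGFP cells. PSMB9 had 5.45 and 4.05 FPKM in esiFLI1 cells and 1.94 and 1.25 FPKM in esiGFP cells. For both genes the lower esiFLI1 library lay above the higher control. PSMB8 rose by 1.05, or 2.07-fold on the FPKM + 1 scale (limma blocked SE 0.16, adjusted p = 0.00183; 0.317 without a block). PSMB9 rose by 1.15, or 2.22-fold, with 1.13 in replicate 1 and 1.17 in replicate 2 (limma blocked SE 0.13, adjusted p = 4.29e-04; 0.14 without a block). Over the blocked settings the adjusted p of PSMB8 was at most 0.0465 and that of PSMB9 at most 0.0189, and over all settings they reached 0.678 and 0.527. With no block the PSMB8 change was 0.53 without esiGFP replicate 2 and 1.57 without esiGFP replicate 1, and that of PSMB9 lay between 0.96 and 1.54 over all settings.

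**Figure D2:**
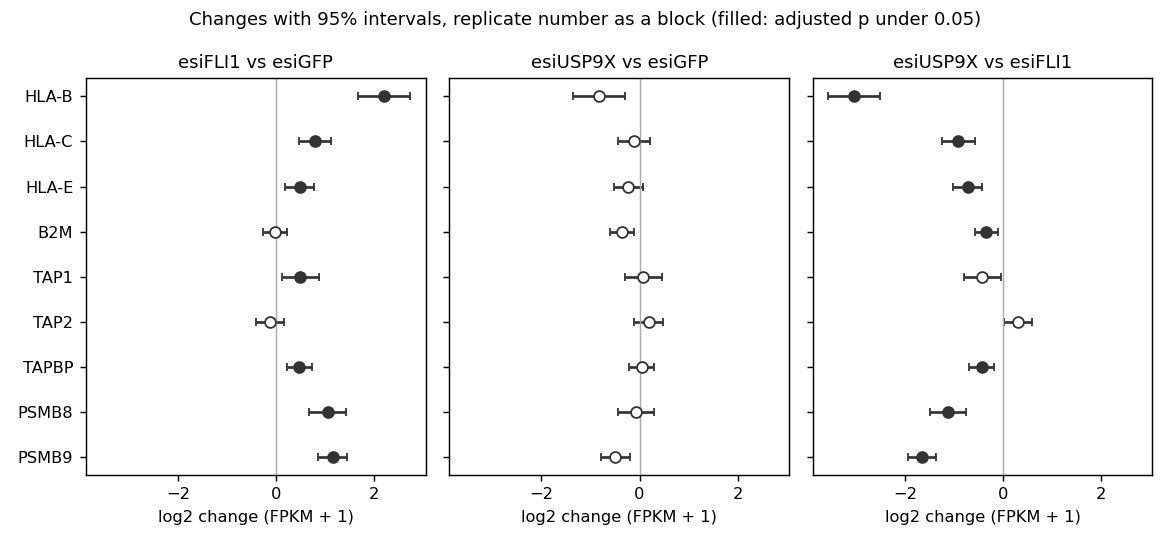
Log2 changes of the 9 genes (FPKM + 1) with 95% intervals from the fit with the replicate number as a block, in a panel for each comparison; filled points had an adjusted p under 0.05. In esiFLI1 against esiGFP 7 genes are filled and to the right of 0, in esiUSP9X against esiGFP none is filled, and in esiUSP9X against esiFLI1 7 are filled and to the left of 0.

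After USP9X knockdown limma called none of the 9 genes against esiGFP, 0 in either fit, at background shares of called genes of 0.0247% without a block and 0.238% in the blocked fit. At an unadjusted p under 0.05 the fit without a block had 0 of the 9 genes and the blocked fit 3 (HLA-B, B2M and PSMB9). Over the 12169 kept genes these fits had 114 and 1321. The median log2 change of the 9 genes was -0.11, against -0.01 over all kept genes. Its sign depended on the libraries: without a block it was 0.45 without esiGFP replicate 1 and 0.17 without esiUSP9X replicate 2, but -0.33 without esiUSP9X replicate 1 and -0.52 without esiGFP replicate 2. HLA-B had 1.74 and 1.31 FPKM in esiUSP9X cells and 6.22 and 1.77 FPKM in esiGFP cells. B2M had 1545 and 1278 FPKM in esiUSP9X cells and 1890 and 1708 FPKM in esiGFP cells. These were the 2 genes whose esiUSP9X libraries both lay below both controls, as did 7.82% of all kept genes, while 0 lay above (8.75% of all kept genes). The log2 difference of HLA-B was -0.83 (blocked 95% interval -1.36 to -0.30, limma adjusted p = 0.274), with -1.40 in replicate 1 and -0.26 in replicate 2. The size of the HLA-B difference ran from -1.52 without esiGFP replicate 2 to -0.14 without esiGFP replicate 1, both with no block. The log2 difference of B2M was -0.35 (-0.59 to -0.11, limma adjusted p = 0.294), and it was negative in each of the 26 settings tried.

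For the other genes the esiUSP9X and esiGFP ranges overlapped. PSMB9 had 1.27 and 0.453 FPKM in esiUSP9X cells and 1.94 and 1.25 FPKM in esiGFP cells, with a log2 difference of -0.50 (blocked interval -0.79 to -0.20, limma adjusted p = 0.247). Its esiUSP9X values just overlapped the controls. HLA-C had 58.6 and 33.2 FPKM in esiUSP9X cells and 78.5 and 29.0 FPKM in esiGFP cells, and its log2 difference of -0.11 had an interval of -0.45 to 0.22. HLA-E had 13.8 and 12.8 FPKM in esiUSP9X cells and 19.6 and 12.7 FPKM in esiGFP cells, with a log2 difference of -0.23. The esiUSP9X libraries of both genes lay within the range of the controls. TAP1 (3.81 and 2.98 FPKM in esiUSP9X cells), TAP2 (8.11 and 6.83), TAPBP (23.2 and 13.9) and PSMB8 (13.1 and 8.94) had log2 differences of 0.08, 0.19, 0.04 and -0.08. For TAP1, TAP2, TAPBP and PSMB8 the blocked intervals reached -0.45 at the low end, for PSMB8, and 0.48 at the high end, for TAP2. That of HLA-E was -0.53 to 0.06. With no block the intervals were wider, such as -1.19 to 1.27 for TAPBP and -1.66 to 1.43 for HLA-C. Changes within these intervals could not be told from none.

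The difference between the knockdowns was tested in the same fit by setting esiUSP9X against esiFLI1, a difference in which the esiGFP levels cancel. In limma's blocked fit 7 of the 9 genes were lower in esiUSP9X than in esiFLI1 and 0 were higher, at background shares of 41.1% called in either direction and 20.9% called lower. Without a block 0 of the 9 were called, against 3.08% of all kept genes. At an unadjusted p under 0.05 that fit had 4 of the 9, against 1931 of the 12169 kept genes. The blocked count of 7 was 5 without esiFLI1 replicate 1 and 4 without esiFLI1 replicate 2. The median log2 difference was -0.72 for the 9 genes and 0.02 over all kept genes. HLA-B differed by -3.03 (blocked SE 0.23, adjusted p = 7.41e-05; 0.0606 without a block) and PSMB9 by -1.65 (SE 0.13, adjusted p = 8.03e-05; 0.0602 without a block). Both passed the threshold without a block after quantile normalization and after rescaling without MIR6723, and over all settings their limma adjusted p reached 0.326. PSMB8 (-1.13, adjusted p = 0.00128), HLA-C (-0.91, 0.0021), HLA-E (-0.72, 0.00357), TAPBP (-0.43, 0.0153) and B2M (-0.34, 0.033) were also called in the blocked fit. These calls were not equally stable over the 13 blocked settings, of which 13 called PSMB8, 12 called HLA-C, 12 called HLA-E, 10 called TAPBP (limma adjusted p up to 0.143) and 8 called B2M (up to 0.342). TAP1 (-0.42, adjusted p = 0.0699) and TAP2 (0.31, 0.0858) were not. Both esiUSP9X libraries lay below both esiFLI1 libraries for 6 of the 9 genes, as for 21.1% of all kept genes, and above them for 0 (18.4%).

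Ratios taken within a library set the genes against each other without any scaling between libraries. HLA-B was 22.9% and 23.8% of HLA-C in the esiFLI1 libraries, 2.98% and 3.96% in esiUSP9X, and 7.93% and 6.12% in esiGFP. The replicates of a group lay close together in this ratio, even though both genes differed widely between replicates, and the 3 groups did not overlap. HLA-B was 1.44% and 0.838% of B2M in esiFLI1, 0.113% and 0.103% in esiUSP9X, and 0.329% and 0.104% in esiGFP. HLA-C was 6.29% and 3.53% of B2M in esiFLI1, 3.79% and 2.6% in esiUSP9X, and 4.15% and 1.70% in esiGFP. Of these ratios to B2M, that of HLA-B did not overlap between esiFLI1 and esiGFP, while that of HLA-C did.

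The immunoproteasome subunits were set against the standard subunits that they replace. PSMB8 was 7.32% and 9.03% of PSMB5 in esiFLI1, 3.11% and 2.67% in esiUSP9X, and 4.0% and 2.05% in esiGFP. PSMB9 was 1.74% and 2.03% of PSMB6 in esiFLI1, 0.366% and 0.170% in esiUSP9X, and 0.581% and 0.439% in esiGFP. Both ratios were higher in both esiFLI1 libraries than in every other library, and replicate 2 was the higher in esiFLI1, unlike the levels of PSMB8 and PSMB9. The denominators moved too, so these ratios do not measure PSMB8 and PSMB9 alone. Against esiGFP, PSMB5 had a log2 change of -0.38 (limma blocked adjusted p = 0.0512) and PSMB6 of -0.30 (0.0812). Neither was called, and their ranges overlapped between these groups. In esiFLI1 replicates 1 and 2, PSMB5 had 389.5 and 240.6 FPKM and PSMB6 313.2 and 199.9 FPKM. PSMB10, the remaining immunoproteasome subunit, was 12.2% and 5.02% of PSMB7 in esiFLI1, 8.05% and 4.04% in esiUSP9X, and 9.80% and 2.98% in esiGFP. Its ratio overlapped between all groups and followed the replicate number. TAP1 was 83.6% and 82.9% of TAP2 in esiFLI1, 47.0% and 43.7% in esiUSP9X, and 59.5% and 38.9% in esiGFP, so that the esiFLI1 libraries stood above the rest.

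**Figure D3:**
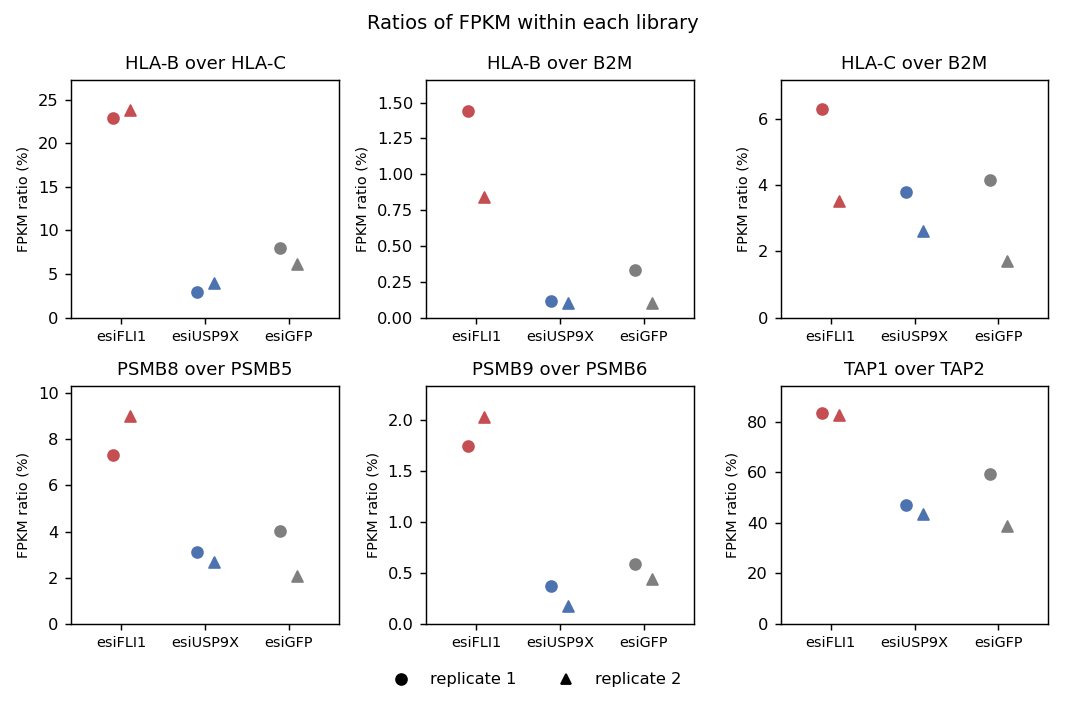
Ratios of FPKM between class I pathway genes within each library, in percent, for esiFLI1, esiUSP9X and esiGFP cells; circles are replicate 1 and triangles replicate 2. The ratio of HLA-B to HLA-C was 22.9% and 23.8% in esiFLI1 and at most 7.93% elsewhere.

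Genes around the pathway were read from lists by their role. For comparison, the blocked fit called 42.1% of all kept genes in esiFLI1 against esiGFP. The 12 kept genes for peptide loading and trimming included 4 that rose and 2 that fell in esiFLI1 with the block, and 0 that were called without it (median log2 change 0.11, against -0.03 over all kept genes). LNPEP, an endosomal aminopeptidase (0.69, limma adjusted p = 0.00206), and TAPBPL, a tapasin-related peptide editor (0.70, 0.00428), rose, and THOP1, a cytosolic peptidase that degrades peptides (-0.67, 0.00293), and BLMH, a cytosolic aminopeptidase (-0.46, 0.00633), fell. The chaperones CALR (0.27, adjusted p = 0.145) and CANX (0.00, 0.979) were not called. Outside the 9 class I genes, 9 proteasome genes were kept, of which the blocked fit called 1 higher and 4 lower in esiFLI1 and the fit without a block called 0 (median -0.38). The 4 were POMP, an assembly factor (-0.48, adjusted p = 0.0059), PSME3 and PSME4, proteasome activators (-0.44, 0.0104 and -0.39, 0.0159), and PSMB7, a standard catalytic subunit (-0.46, 0.0149), while PSME1, a subunit of the interferon-inducible activator, rose (0.28, 0.0397). PSMB10 had a log2 change of 0.06 (adjusted p = 0.748). Of 7 kept class I-like genes, MR1, which presents vitamin metabolites, rose (0.81, 0.00265), and FCGRT, the neonatal Fc receptor that also pairs with beta-2-microglobulin (-0.90, 8.17e-04), and ULBP1, a ligand of the NKG2D receptor (-0.76, 0.00264), fell, with 0 called without a block and a median of -0.25. MR1 passed the filter only through the esiFLI1 libraries (1.69 and 1.29 FPKM, at most 0.533 elsewhere) and ULBP1 only through the other libraries, so the counts of this list are no support for a change of the list. The nonclassical gene HLA-F was at most 0.114 FPKM in every library.

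Among the regulators of class I transcription, IRF1 and IRF2 had the smallest adjusted p-values in esiFLI1. The 17 kept genes gave 3 rises and 2 falls in esiFLI1 with the block, where 42.1% of all kept genes were called, and 0 calls without it, with a median of 0.03. IRF1, the interferon-induced activator of class I promoters, had 5.46 and 3.86 FPKM in esiFLI1 cells and 1.62 and 1.06 FPKM in esiGFP cells. Its groups did not overlap, and it rose by 1.27 (limma blocked adjusted p = 3.77e-04; 0.0587 without a block). IRF2, a related factor, rose by 0.78 (6.63e-04) and NFKB1, a subunit of NF-kappaB, by 0.37 (0.0229), while EZH2, the methyltransferase of Polycomb repressive complex PRC2, fell by 0.36 (0.0186) and RFXAP, a subunit of the RFX complex that binds the X box, fell by 0.35 (0.0299). NLRC5, named after its values were seen because it is the known activator of class I genes, did not pass the filter on low values. It had 1.73 and 0.748 FPKM in esiFLI1 cells, 0.627 and 0.328 FPKM in esiUSP9X cells, and 0.733 and 0.363 FPKM in esiGFP cells. Replicate 1 was the higher in every group, and the lower esiFLI1 value was just above the higher control.

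Many interferon response genes were higher in esiFLI1. Of 25 kept members, 18 rose and 1 (USP18, a negative regulator of interferon signalling, -0.39, limma adjusted p = 0.0276) fell in esiFLI1 in the blocked fit, against 20.6% of all kept genes called higher, and 1 rose without a block. Their median log2 change was 0.70. The count of rises and the median include SP100, which would not have passed the filter without the esiFLI1 libraries (3.30 and 4.89 FPKM there, at most 1.26 elsewhere). The smallest adjusted p-values in the blocked fit belonged to GBP2, a guanylate-binding protein (1.70, adjusted p = 1.51e-04; 0.0227 without a block), IFITM1 (1.25, 7.07e-04) and IFITM2 (1.46, 7.82e-04), membrane proteins that block virus entry, and UBE2L6, the conjugating enzyme for ISG15 (1.08, 7.48e-04). ISG15 itself was not called (adjusted p = 0.57). The 14 kept genes for interferon receptors and signalling gave 4 rises and 1 fall with the block and 0 calls without it (median 0.21). Besides IRF1 they were SOCS1, an inhibitor of the JAK kinases (1.71, adjusted p = 2.94e-04), STAT2 (0.94, 4.90e-04) and IRF9 (0.98, 8.91e-04), subunits of an interferon-activated transcription factor, and the fall was in PTPN2, a phosphatase of the pathway (-0.37, 0.0276). The 6 kept genes of a list of inhibitory ligands and antigen editing in tumours gave 4 rises and 0 falls with the block, and 2 rises without it (median 0.76). The risers were NT5E, the ectonucleotidase CD73 (3.50, adjusted p = 6.98e-06; 0.00755 without a block), PDCD1LG2, the PD-1 ligand PD-L2 (1.63, 9.55e-05; 0.0104 without a block), CD274, the ligand PD-L1 (1.05, 0.00122), and CD47, which signals against phagocytosis (0.46, 0.0161). PDCD1LG2 (2.67 and 3.02 FPKM in esiFLI1, at most 0.276 elsewhere) and CD274 (1.28 and 1.98 FPKM in esiFLI1, at most 0.359 elsewhere) passed the filter only through the esiFLI1 libraries, so the counts and the median of this list are no support for a change of the list. In esiUSP9X against esiGFP, 0 genes of any of these lists were called in either limma fit; the number of genes at an unadjusted p under 0.05 over all kept genes was 114 without a block and 1321 with it.

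**Figure D4:**
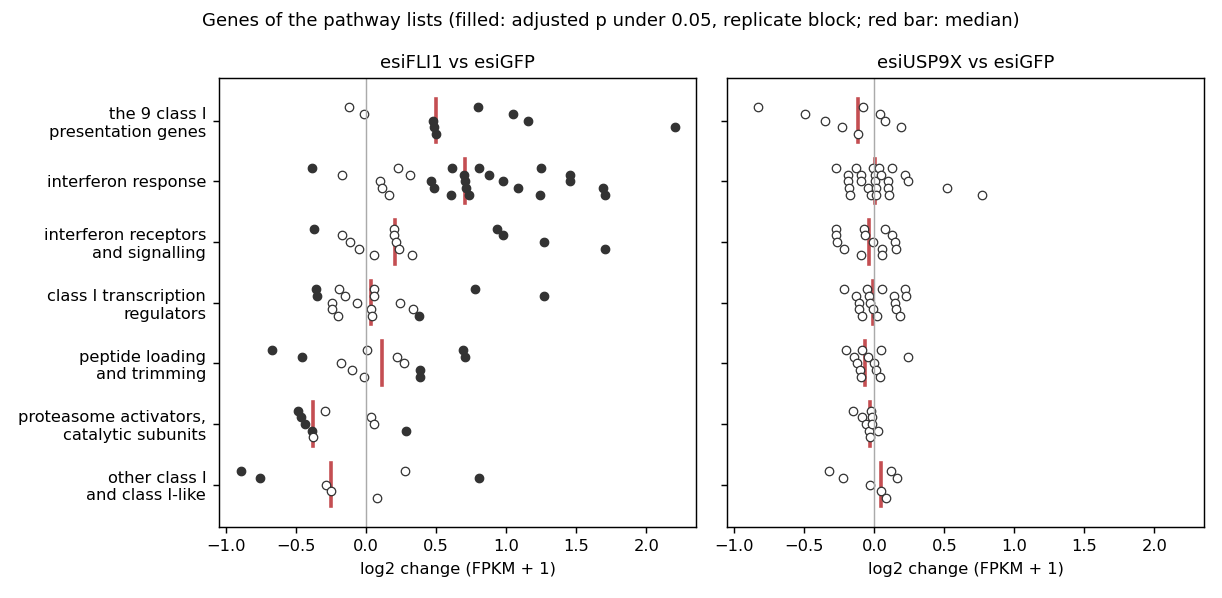
Log2 changes (FPKM + 1) of each kept gene in the 9 class I genes and 6 lists of related genes, for esiFLI1 against esiGFP and esiUSP9X against esiGFP. Filled points had an adjusted p under 0.05 in the fit with the replicate number as a block, and red bars are medians, which lie at 0.50 for the class I genes and 0.70 for the interferon response genes in esiFLI1.

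MHC class II genes, which serve professional antigen-presenting cells, were low in all libraries. Of 12 genes, 1 (CTSS, a lysosomal protease) was kept. CTSS passed the filter only through the esiFLI1 libraries, with 1.26 and 1.54 FPKM there and at most 0.548 elsewhere, and it was called with the block (log2 change 0.63, limma adjusted p = 0.00608) and not without it (0.1). HLA-DMA, which helps to load class II molecules and was not kept, had 2.04 and 0.875 FPKM in esiFLI1 cells and 0.437 and 0.107 FPKM in esiGFP cells, and the summed FPKM of all 12 was 2.6 to 3.70 in esiFLI1, 1.22 to 1.56 in esiUSP9X and 0.918 to 1.51 in esiGFP. Of 8 Ewing sarcoma markers 7 were kept, which include the target FLI1 and its fusion partner EWSR1. All 7 fell in esiFLI1 in the blocked fit, which called 42.1% of all kept genes, and 3 without a block. The sum of the list was 376 to 409 FPKM in esiFLI1, 766 to 823 in esiUSP9X and 822 in both esiGFP libraries. CD99, the surface marker of the disease, was listed at 0 in all 6 libraries. A listed 0 does not tell a gene without RNA from a gene whose reads were not counted. Leukocytes carry much class I, and of 12 leukocyte markers 1 (CD68) was kept and 4 were at 0 everywhere. Their sum was 4.96 to 8.82 FPKM in esiFLI1, 2.37 to 2.82 in esiUSP9X and 3.31 to 4.52 in esiGFP, most of it CD68, with PTPRC, the leukocyte common antigen, at most 0.0201 FPKM. Of 7 endothelial markers 2 were kept, and the sum was 30.8 to 51.9 FPKM in esiFLI1, 16.8 to 24.7 in esiUSP9X and 19.6 to 22.8 in esiGFP, most of it EMCN. Of 8 epithelial markers 2 (KRT8 and KRT18) were kept, and the sum was 141 to 243 FPKM in esiFLI1, 162 to 230 in esiUSP9X and 148 to 199 in esiGFP, with CDH1, the epithelial cadherin, at 0. KRT8, a keratin, was higher in esiFLI1 (log2 change 1.36, limma blocked adjusted p = 6.01e-05) and in esiUSP9X (0.86, 0.021) than in the esiGFP libraries that both comparisons share. The part of these markers in the class I changes was not tested, and in bulk RNA fewer cells of a type and less RNA per cell cannot be told apart.

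The members differed in how closely they followed each other over the 6 libraries. Pearson's r of a gene's log2 level with the mean of the other 8 was 0.977 for HLA-E, 0.971 for PSMB8, 0.948 for HLA-C, 0.899 for TAP1, 0.891 for HLA-B, 0.883 for PSMB9, 0.849 for TAPBP, 0.689 for B2M and 0.154 for TAP2. The points share the knockdown groups and the replicate difference, so these values are a description. Pearson's r with the mean of all 9 was taken for 8831 other genes with a mean of at least 5 FPKM. The highest were RTN1, a reticulon of the endoplasmic reticulum (0.998), COL6A1, a collagen VI chain (0.998), and LAMA5, a laminin chain (0.997). MRC2, a collagen receptor (0.996), and GADD45B, a stress-induced gene (0.996), followed. As the highest of 8831 values over 6 libraries, these cannot be set beside the values of the members. COL6A1, for example, had 62.2 and 32.5 FPKM in esiFLI1 cells, 17.5 and 10.7 FPKM in esiUSP9X cells, and 30.7 and 9.75 FPKM in esiGFP cells. Replicate 1 of COL6A1 was the higher in each group, and its esiFLI1 libraries were the highest of their number.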

How the data were processed

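RNA was read by stranded total RNA sequencing after ribosomal RNA depletion, from 2 µg of total RNA with 75-nucleotide single-end reads, per the labels' protocols. The authors' deposited values are FPKM, with a column for each of the 6 libraries; the submitters' processing notes list the tools TopHat, Cufflinks and Cuffdiff, without versions or roles, and as builds GRCh37 and hg19. No source used here gives the annotation, the strand setting or the handling of reads shared by near-identical HLA genes, and read depth is unknown, so no counting interval is given.

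Values were taken as log2(FPKM + 1) for the 12169 of 25268 symbols that reached 1 FPKM in 2 or more libraries; 1 stray line that names no gene was dropped. limma 3.58.1 in R 4.3.3 was fitted to 3 group means over all 6 libraries with an intensity trend, with Benjamini-Hochberg adjustment over all kept genes (3 residual and 2.21 prior degrees of freedom). Adding the replicate number as a block gave 2 residual and 5.72 prior degrees of freedom. The pairing by number comes from the data: deviations from the group means of same-numbered libraries correlated at 0.644 (esiFLI1 and esiUSP9X), 0.647 (esiFLI1 and esiGFP) and 0.589 (esiUSP9X and esiGFP) over the kept genes. With 2 libraries a group these are single values for each pair of groups. Single values of some list genes are not reported here.

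The 9 genes, the lists and the motifs were chosen with earlier results of these data known. Beyond the 9 genes and the targets, up to 4 genes for each list with the smallest blocked p in esiFLI1 against esiGFP are named, with further kept genes of known role, and the 5 genes most correlated with the mean of the 9. Alternatives were a pseudocount of 0.1, no filter, a filter at 5 FPKM, quantile normalization, rescaling without MIR6723, no trend, leaving out each library, and the block with each of these.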

Additional observations from a re-analysis of the deposited data

How the results depend on the processing

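Each comparison was fitted under 26 settings, 13 of them with the replicate block, on which the calls of the class I genes rest. Every alternative value below, blocked or not, was set against the main fit, which has no block. Of 318 alternative values of the 9 genes without a block, 294 kept their direction and their side of the threshold, 4 became called and 20 changed sign; with the replicate block 171 of 345 kept both, 163 became called and 11 changed sign. The filter at 5 FPKM left no value for TAP1 and PSMB9. The cause of these changes was not tested.

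Without a block, esiFLI1 against esiGFP gave 558 called genes with no filter and 139 with the filter at 5 FPKM, against 342, and esiUSP9X against esiFLI1 gave 154 with that filter, against 375; of the 9 genes, 2 were called in esiUSP9X against esiFLI1 after quantile normalization and 2 after rescaling without MIR6723, against 0. With the replicate block, genes called in esiFLI1 against esiGFP, esiUSP9X against esiGFP and esiUSP9X against esiFLI1 numbered 5125, 29 and 4996. They numbered 5104, 26 and 4969 with pseudocount 0.1, 4239, 3 and 4197 with no filter, 4007, 28 and 3890 with the filter at 5 FPKM, 4710, 34 and 4863 after quantile normalization, 4970, 20 and 4788 after rescaling, and 5034, 27 and 4910 with no trend. Of the 9 genes, in the same order of settings, the block called 7, 7, 5, 5, 6, 7 and 7 in esiFLI1 against esiGFP and 7, 7, 5, 6, 8, 7 and 7 in esiUSP9X against esiFLI1.

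Rescaling moved the median log2 change over all genes to 0.10 in esiFLI1 against esiGFP, from -0.03, and with the block 68.9% of calls were then higher, against 48.8% as deposited; in esiUSP9X against esiFLI1 the share was 35.8%, against 49.1%, and in esiUSP9X against esiGFP 45.0%, against 31.0%. In either fit the B2M change in esiFLI1 was 0.18 after quantile normalization and 0.14 after rescaling, and that of TAP2 0.010 after rescaling.

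Leaving out each library, with and without the block, gave 2 to 4670 called genes and 0 to 7 of the 9 in esiFLI1 against esiGFP, 3 to 271 and 0 to 1 in esiUSP9X against esiGFP, and 3 to 5378 and 0 to 8 in esiUSP9X against esiFLI1. A group left with 1 library was assumed to vary like the other groups, so the adjusted p-values and counts of these fits do not measure the spread of that group. Changes whose sign turned ran from -0.11 to 0.074 for B2M, -0.43 to 0.19 for TAP2 and -0.028 to 0.98 for TAPBP in esiFLI1 against esiGFP. In esiUSP9X against esiGFP they ran from -0.82 to 0.59 for HLA-C, -0.52 to 0.058 for HLA-E, -0.39 to 0.55 for TAP1, -0.088 to 0.46 for TAP2, -0.37 to 0.45 for TAPBP and -0.60 to 0.45 for PSMB8. In esiUSP9X against esiFLI1 they ran from -0.0012 to 0.62 for TAP2 and -0.94 to 0.068 for TAPBP. HLA-B, PSMB8 and PSMB9 were called in esiFLI1 against esiGFP under every setting with the block that gave a value (13, 13 and 12 settings) and under none without it.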

Other observations

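The difference between same-group libraries was uneven across genes of this pathway. In the esiGFP libraries, PSMB10 had 17.7 and 6.13 FPKM, FCGRT 142 and 53.0 FPKM, SOCS1 2.19 and 0.362 FPKM and HLA-C 78.5 and 29.0 FPKM in replicates 1 and 2. In the same libraries PSMB7 had 180 and 206 FPKM and POMP 171 and 229 FPKM, so that replicate 2 was the higher for both. The same direction held in esiUSP9X for PSMB10 (15.2 and 7.53 FPKM), FCGRT (128 and 62.8 FPKM), SOCS1 (2.13 and 0.646 FPKM) and POMP (164 and 194 FPKM), but not for PSMB7 (189 and 186 FPKM). These genes were chosen after their values were seen.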
